A study of Mus musculus with 72 samples.

Results

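The genes described here encode 7 subunits of the GABA-A receptor: the alpha subunits Gabra2, Gabra3, Gabra5 and Gabra6, the beta subunits Gabrb1 and Gabrb2, and the delta subunit Gabrd. They were taken by name from the 53715 gene rows of each count file, and another 12 GABA-A receptor subunit genes served for comparison. The series holds 72 RNA-seq libraries, of which the 36 brain libraries were used. They came from 12 male mice of 18 weeks, 6 Gnb5+/+ (wild type) and 6 Gnb5-/- (knockout), each giving a whole cerebellum (Cb), both hippocampi (Hc) and a whole cerebral cortex (Co). Both genotypes were on a C57BL/6J background, were fed freely, and differed by a germline deletion of exon 3 of Gnb5, which all tissues of the knockouts carry. Gnb5 encodes an atypical G protein beta subunit that partners the R7 family of regulators of G protein signalling. The 3 regions of an animal share its mouse number and are not independent.

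GABA-A receptors are chloride channels assembled from alpha and beta subunits with either a gamma or a delta subunit, and they carry fast inhibition in the brain. The alpha subunit sets much of where a receptor sits and how it responds: alpha6 is a hallmark of cerebellar granule cells, alpha5 of hippocampal pyramidal cells, alpha2 of the axon initial segment and alpha3 of several forebrain populations. Receptors with delta lie outside synapses and carry tonic inhibition, with alpha6 in the cerebellum.

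Each library held 29204390 to 48807435 reads counted on genes. Levels are CPM, read counts scaled to library size with TMM factors, and every value below is a median or range over 6 libraries unless another number is given. The deleted gene followed the labels: Gnb5 ranged from 96.4 to 156 CPM in the 18 Gnb5+/+ libraries and from 11.9 to 22.0 CPM in the 18 Gnb5-/- libraries. The regions carried their own markers. In Gnb5+/+ mice the summed level of 7 cerebellar granule cell genes was 5226 to 5904 CPM in cerebellum and 97.4 to 175 CPM elsewhere, that of 4 genes of the hippocampal CA fields was 523 to 581 CPM in hippocampus, 268 to 323 CPM in cortex and 21.4 to 24.9 CPM in cerebellum, and that of 6 cortical genes was 510 to 643 CPM in cortex and 54.5 to 206 CPM elsewhere. No marker list had a gene at 0 in all libraries of a group.

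Among the Gnb5-/- libraries, 3 stood apart from the rest: cerebellum replicate 2 (mouse 12), cortex replicate 3 (mouse 14) and cortex replicate 5 (mouse 3). The counter assigned only 8.02%, 6.86% and 8.32% of their reads to no gene feature, against 11.7% to 16.97% in the other 33 libraries. Their median correlation with libraries of the same region was 0.905, 0.854 and 0.958. Reads not aligned uniquely made up 24.3%, 27.5% and 23.1% of their totals, against 15.5% to 19.3% in the other 33 libraries. Cortex replicate 3 was also the shallowest brain library, with 29204390 reads on genes. Most results that rest on these 3 libraries are given with and without them, but the shares of the alpha subunits are given only with them. The mice concerned gave ordinary libraries from their other regions.

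**Figure D1:**
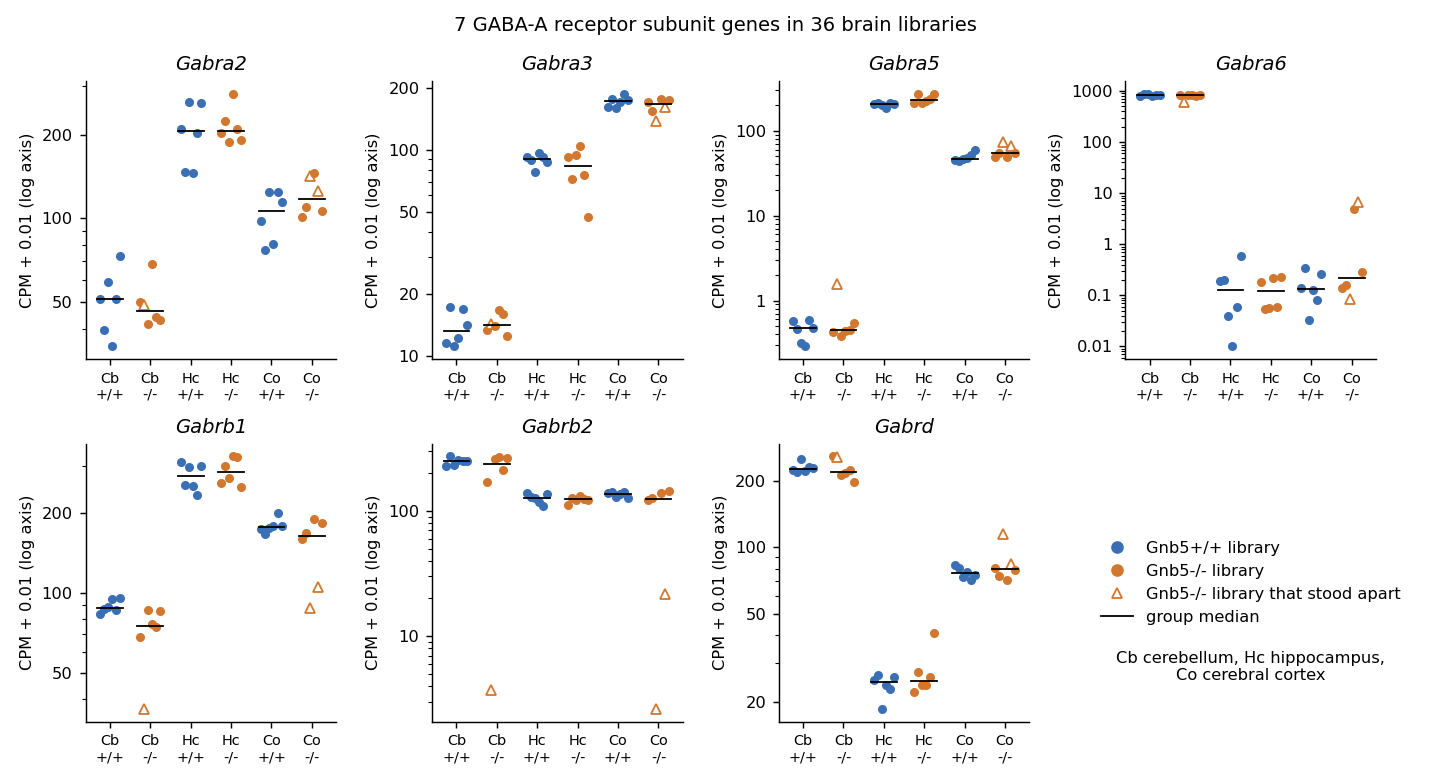
Level of each of the 7 subunit genes in the 36 brain libraries, as CPM + 0.01 on a log axis, by region and genotype; points are libraries, black lines group medians and open triangles the 3 Gnb5-/- libraries that stood apart. Gabra6 sits at 604 to 891 CPM in cerebellum and at or below 6.66 CPM elsewhere, and the open triangles of Gabrb2 in cerebellum and cortex lie far below their groups.

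Gabra6 and Gabra5 had the largest differences between cerebellum and the other regions. Gabra6 (ENSMUSG00000020428; GRCm38, chr11:42306437-42321072, minus strand) was at 806, 843 and 891 CPM (lowest, median and highest) in Gnb5+/+ cerebellum. In Gnb5+/+ hippocampus it was at 0, 0.115 and 0.586 CPM, which corresponds to 0 to 22 reads per library, and in cortex at 0.0232, 0.125 and 0.327 CPM, from 1 to 13 reads. All 6 cerebella stood above every library of the other regions. The fitted log2 difference was 12.41 (SE 0.20) against cortex and 12.26 (SE 0.20) against hippocampus (edgeR, adjusted p = 7.37e-19 and 6.23e-19), sizes that depend on how counts near 0 are treated. Hippocampus and cortex overlapped, with a log2 difference of 0.16 (SE 0.65; edgeR, adjusted p = 0.856).

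Gabra5 (ENSMUSG00000055078; chr7:57407672-57510059, minus strand) had the reverse order. It was at 186, 206 and 213 CPM in Gnb5+/+ hippocampus, at 44.5, 47.0 and 58.9 CPM in cortex and at 0.278, 0.462 and 0.582 CPM in cerebellum, where each library held 13 to 24 reads. The 3 regions did not overlap. Gabra5 was higher in hippocampus than in cortex by 2.06 on the log2 scale (SE 0.05; edgeR, adjusted p = 8.18e-15) and lower in cerebellum than in hippocampus by a log2 difference of -8.86 (SE 0.09; adjusted p = 4.72e-21). Its gene body overlaps a neighbouring subunit gene on the opposite strand, without shared exon bases, and it shares 148 exon bases with the antisense gene Gm9962. Because the strand setting of the counter is not given in the sources used here, reads there cannot be told apart.

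The sequences before these 2 genes are shown because they differ most between regions; they come from RefSeq on GRCm38.p6, in which 6 of the 7 members were matched and Gabrd was not. Both runs are the 250 bases upstream of the start site, 5′ to 3′ on the minus strand, chr11:42321073-42321322 for Gabra6 and chr7:57510060-57510309 for Gabra5, with CG dinucleotides in capitals.
Gabra6: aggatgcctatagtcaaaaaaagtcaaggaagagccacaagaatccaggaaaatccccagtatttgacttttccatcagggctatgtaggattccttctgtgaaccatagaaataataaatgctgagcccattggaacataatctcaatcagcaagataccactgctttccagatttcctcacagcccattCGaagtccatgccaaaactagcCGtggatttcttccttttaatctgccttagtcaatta
Gabra5: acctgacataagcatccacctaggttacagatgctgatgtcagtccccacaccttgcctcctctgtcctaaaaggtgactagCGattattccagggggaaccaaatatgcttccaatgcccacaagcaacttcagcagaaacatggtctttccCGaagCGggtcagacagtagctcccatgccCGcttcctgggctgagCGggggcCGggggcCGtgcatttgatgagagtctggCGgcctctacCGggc
The Gabra6 window held 40.8% G+C and 2 CG dinucleotides, and the Gabra5 window 56.4% and 9, against medians of 52.4% and 6 over 32851 RefSeq promoter windows of the same length. The members ran from 0 CG dinucleotides in both Gabra3 windows to 18 in those of Gabra2 and the first start of Gabrb1. The letters TATAAA, on either strand, were found once in both Gabra3 windows, which overlap, and in the first of 3 Gabrb2 windows, and in 12.4% of all windows. These are descriptions of the letters, not of factor binding.

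Gabra3 (ENSMUSG00000031343; chrX:72432681-72656848, minus strand) was highest in cortex. Its levels in Gnb5+/+ mice were 159, 172 and 187 CPM in cortex, 77.7, 90.5 and 96.6 CPM in hippocampus and 11.1, 13.1 and 17.1 CPM in cerebellum, again with no overlap. It fell by 0.94 on the log2 scale from cortex to hippocampus (SE 0.06; edgeR, adjusted p = 1.09e-09), and cerebellum was lower than cortex by a log2 difference of -3.65 (SE 0.07; adjusted p = 9.30e-18). Gabra2 (ENSMUSG00000000560; chr5:70957597-71095849, minus strand) was highest in hippocampus, at 146, 206 and 263 CPM, intermediate in cortex, at 77.0, 106 and 124 CPM, and lowest in cerebellum, at 34.5, 51.1 and 73.2 CPM. The cerebellum differed from the hippocampus by -1.997 (SE 0.06) and from the cortex by -1.03 (SE 0.06) on the log2 scale (edgeR, adjusted p = 7.43e-15 and 7.99e-11). Its range between wild-type mice was wide in each region and is taken up again below.

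Dividing CPM by kilobases of annotated exon makes levels of different genes comparable. Gabra6 then made up 97.0% ± 0.50 (SD, n = 6) of the summed level of the 4 alpha members in Gnb5+/+ cerebellum. Gabra5 made up 58.0% ± 2.8 in hippocampus, followed by Gabra2 with 22.5% ± 4.6 and Gabra3 with 19.4% ± 2.3. In cortex Gabra3 led with 59.4% ± 3.3, followed by Gabra5 with 22.3% ± 1.4 and Gabra2 with 18.2% ± 3.0. The mean shares in Gnb5-/- mice lay close by, with 96.8% ± 0.65 for Gabra6 in cerebellum, 61.9% ± 6.0 for Gabra5 in hippocampus and 53.6% ± 5.4 for Gabra3 in cortex. Those of cerebellum and cortex include the libraries that stood apart, and the cortical share of Gabra3 ran from 44.7% to 59.4%. The length used matters: per kilobase of coding sequence, Gabra2, which has 7.64 kb of exon but 1.353 kb of coding sequence, reached 42.3% in Gnb5+/+ hippocampus beside 41.7% for Gabra5, whereas Gabra6 kept the first place in cerebellum with 92.8% and Gabra3 in cortex with 49.2%.

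**Figure D2:**
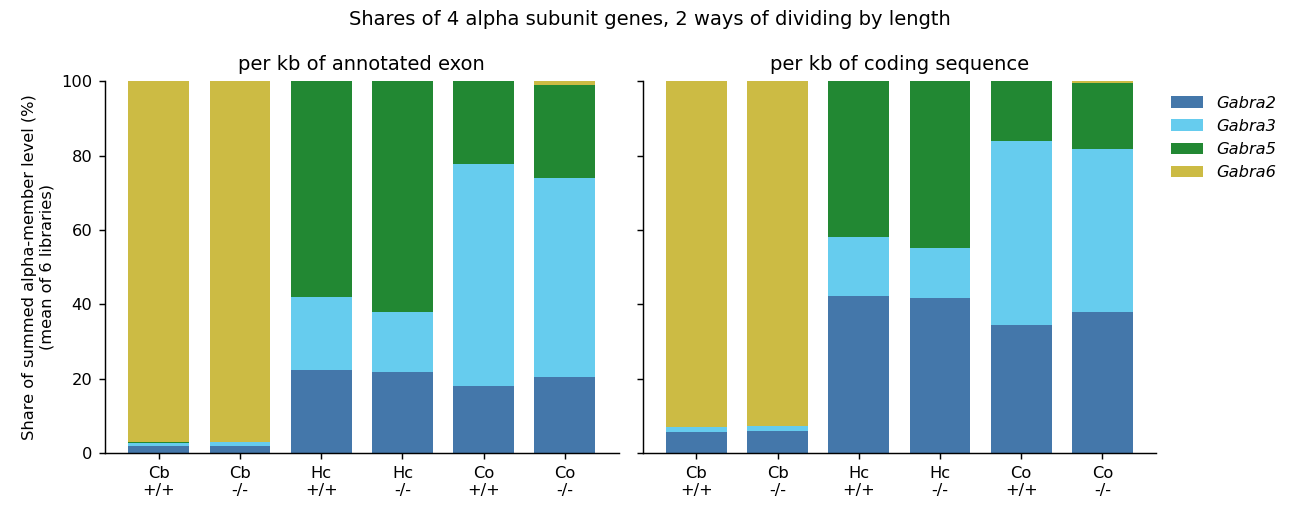
Mean share (%) of each alpha subunit gene in the summed level of the 4 alpha members, in 6 groups of 6 libraries, with levels divided by kilobases of annotated exon (left) or of coding sequence (right). Gabra6 fills over 92% of each cerebellar bar in both panels, while the hippocampal share of Gabra5 falls from 58.0% to 41.7% in Gnb5+/+ mice when coding length is used.

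The beta subunits, which every GABA-A receptor of this class needs for assembly and GABA binding, were present in all regions. Gabrb2 (ENSMUSG00000007653; chr11:42419757-42629028, plus strand) was at 227, 249 and 272 CPM in Gnb5+/+ cerebellum, 110, 127 and 138 CPM in hippocampus and 127, 137 and 142 CPM in cortex. Only the cerebellum stood clear of the other regions, by 0.86 (SE 0.05) over cortex and 0.97 (SE 0.05) over hippocampus on the log2 scale (edgeR, adjusted p = 8.44e-11 and 1.63e-11). Hippocampus and cortex overlapped (log2 difference -0.11, SE 0.05; edgeR, adjusted p = 0.0904); scaling by library totals alone put this difference past the threshold, at an adjusted p of 0.0299 in edgeR. Gabrb1 (ENSMUSG00000029212; chr5:71658113-72149037, plus strand) had the order of Gabra2, with which it shares a cluster of subunit genes on chromosome 5 (it also shares 46 exon bases with Gabra4, on the opposite strand): 234, 277 and 312 CPM in hippocampus, 167, 177 and 199 CPM in cortex and 83.8, 88.0 and 95.8 CPM in cerebellum. The cerebellum differed from cortex by -1.004 (SE 0.06) and from hippocampus by -1.62 (SE 0.06), and hippocampus exceeded cortex by 0.62 (SE 0.06) on the log2 scale (edgeR, adjusted p = 1.02e-10, 1.36e-13 and 2.42e-07). Per kilobase of exon the ratio of Gabrb2 to Gabrb1 was 6.02 ± 0.42 (SD, n = 6) in Gnb5+/+ cerebellum, 1.66 ± 0.12 in cortex and 1.00 ± 0.06 in hippocampus. With coding length these ratios became 2.56, 0.705 and 0.426, so the order of the regions stood while the leading beta gene in cortex and hippocampus changed with the length used.

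Gabrd (ENSMUSG00000029054; chr4:155384980-155398112, minus strand), the delta subunit of extrasynaptic receptors, was highest in cerebellum like its partner Gabra6, but was far from absent elsewhere. Its levels in Gnb5+/+ mice were 220, 227 and 250.3 CPM in cerebellum, 71.3, 76.1 and 83.4 CPM in cortex and 18.5, 24.5 and 26.3 CPM in hippocampus, with no overlap. Cerebellum exceeded cortex by 1.58 (SE 0.06) and hippocampus by 3.27 (SE 0.07), and hippocampus differed from cortex by -1.69 (SE 0.07) on the log2 scale (edgeR, adjusted p = 1.30e-13, 1.82e-17 and 1.18e-12). Bulk tissue cannot tell fewer cells of a type from less RNA per cell, here or in any other comparison.

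Set against all genes, calls of this kind were common. Between Gnb5+/+ cerebellum and cortex 7 of 7 members passed an adjusted p of 0.05 in edgeR, 3 higher and 4 lower in cerebellum, where 81.2% of 18577 genes passed (39.2% higher and 42% lower); the median absolute log2 difference was 1.58 over the members and 0.55 over all genes. Between cerebellum and hippocampus it was again 7 of 7, beside 80.8% of genes (39.6% higher and 41.2% lower), with medians of 2.71 and 0.54. Between hippocampus and cortex 5 of 7 passed, beside 55.9% of genes (27.3% higher and 28.6% lower), with medians of 0.94 and 0.22. These comparisons share libraries, since each region enters 2 of them. Of the other 12 subunit genes 9 could be tested, and 3 were higher and 6 lower in cerebellum than in cortex.

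Within Gnb5+/+ cerebellum the order per kilobase of exon was Gabra6 (340.0 ± 14 CPM per kb, SD, n = 6), Gabrd (79.7 ± 3.9), Gabrb2 (38.9 ± 2.5), Gabra2 (6.73 ± 1.8), Gabrb1 (6.47 ± 0.36), Gabra3 (3.52 ± 0.68) and Gabra5 (0.149 ± 0.042), and only the neighbours Gabra2 and Gabrb1 overlapped. In hippocampus Gabra5 (68.4 ± 3.4 CPM per kb) led without overlap, and the next 4, Gabra2 (26.8 ± 6.8), Gabra3 (22.7 ± 1.7), Gabrb1 (19.9 ± 2.3) and Gabrb2 (19.8 ± 1.8), each overlapped the neighbour in the order. Gabrd (8.27 ± 0.996) and Gabra6 (0.0694 ± 0.088) followed clear of them. In cortex the order was Gabra3 (43.7 ± 2.6 CPM per kb), Gabrd (26.7 ± 1.6), Gabrb2 (21.4 ± 0.97), Gabra5 (16.5 ± 1.8), Gabra2 (13.5 ± 2.8), Gabrb1 (12.9 ± 0.79) and Gabra6 (0.0618 ± 0.046), with overlap between Gabra5 and Gabra2 and between Gabra2 and Gabrb1.

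The loss of Gnb5 was then compared within each region. No member passed an adjusted p of 0.05 in edgeR in any region: 0 of 7 in cerebellum, where 0.0817% of 17139 genes passed, 0 of 6 in hippocampus, where 0.165% of 17588 passed, and 0 of 6 in cortex, where 0.0557% of 17967 passed. Gabra6 was too low to be tested in hippocampus and cortex. DESeq2 also called 0 members in each region. Only Gabra5 in hippocampus had an unadjusted p below 0.05 in edgeR, and the groups of 6 overlapped for all 7 members in all 3 regions. No share of overlap over all genes is given here, so the overlap only describes the members. The median log2 difference over the members tested was -0.07 in cerebellum, 0.07 in hippocampus and 0.03 in cortex, beside 0.00041, 0.00018 and 0.00585 over all genes. The scaling holds this signed median over all genes near 0, so it is no measure of their spread. The median absolute log2 difference was 0.083, 0.112 and 0.237 over the members and 0.155, 0.061 and 0.207 over all genes, in the same order of regions.

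Gabra5 in hippocampus came nearest. It was at 210, 229 and 273 CPM in Gnb5-/- mice against 186, 206 and 213 CPM in Gnb5+/+ mice. All 6 knockouts lay above the wild-type mean of 203 CPM, and the lowest of them fell just below the highest wild type. The log2 difference was 0.22 (SE 0.07), a 16.1% higher level, with p = 0.00511 and an adjusted p of 0.426 in edgeR; a two-sided exact permutation test gave p = 0.00649, in a family of 21 such tests over members and regions whose smallest possible p is 0.00216. Over the alternatives the adjusted p ranged from 0.153 to 0.433. Markers of other cells differed beside it: the summed level of 4 interneuron genes was 99.5 to 162 CPM in Gnb5-/- and 176 to 243 CPM in Gnb5+/+ hippocampus, without overlap, 4 astrocyte genes summed to 1365 to 1473 and 1215 to 1358 CPM, also without overlap, while 4 dentate gyrus genes summed to 240.5 to 409 and 226 to 322 CPM and 4 CA genes to 479 to 598 and 523 to 581 CPM. Among the interneuron genes the neuropeptides Npy (log2 difference -0.52, SE 0.10) and Sst (-0.62, SE 0.13) had adjusted p values of 0.0947 and 0.102 in edgeR, Pvalb differed by -0.05 (SE 0.08) and Vip by 0.14 (SE 0.18), and 0 of the 4 astrocyte genes passed. The astrocyte genes had a median log2 difference of 0.13 and a median absolute one of 0.15, so not all 4 were higher in Gnb5-/-. Choroid plexus genes, 6 in number, summed to 35.8 to 293 CPM in Gnb5-/- and 36.2 to 1585 CPM in Gnb5+/+ hippocampus, with a median log2 difference of -1.97, and 0 of 6 passed (5 had an unadjusted edgeR p under 0.05). The highest Gabra5 level (273 CPM, with 267 CPM next in replicate 2) and the lowest interneuron sum (99.5 CPM) were both those of Gnb5-/- replicate 6. The part of these cell types, and of this library, in the Gabra5 difference was not tested. In cortex Gabra5 differed by 0.24 (SE 0.12; edgeR, adjusted p = 0.474) with all libraries and by 0.08 (SE 0.08) without the 2 that stood apart.

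Gabrb1 in cerebellum was the other member with all knockouts on 1 side of the wild-type mean. The Gnb5-/- cerebella were at 36.7, 75.3 and 86.4 CPM against 83.8, 88.0 and 95.8 CPM in Gnb5+/+. The 2 highest knockouts, at 85.9 and 86.4 CPM, entered the wild-type range. The log2 difference was -0.33 (SE 0.16; p = 0.0686; edgeR, adjusted p = 0.583), and the two-sided exact permutation test gave p = 0.0152. Without replicate 2 it was -0.19 (SE 0.06; edgeR, adjusted p = 0.276, with a range over all alternatives of 0.276 to 0.7), and the exact permutation p was 0.0216. The share of reads with no gene feature moved with it, at 16.1% to 16.97% in the 6 wild-type cerebella and 14.02% to 16.6% in the 5 remaining knockouts. The lowest share was in the library with the lowest of those Gabrb1 levels (68.4 CPM). The part of this share in the difference was not tested. In hippocampus Gabrb1 differed by 0.06 (SE 0.08) and in cortex, without the 2 libraries, by -0.03 (SE 0.06).

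**Figure D3:**
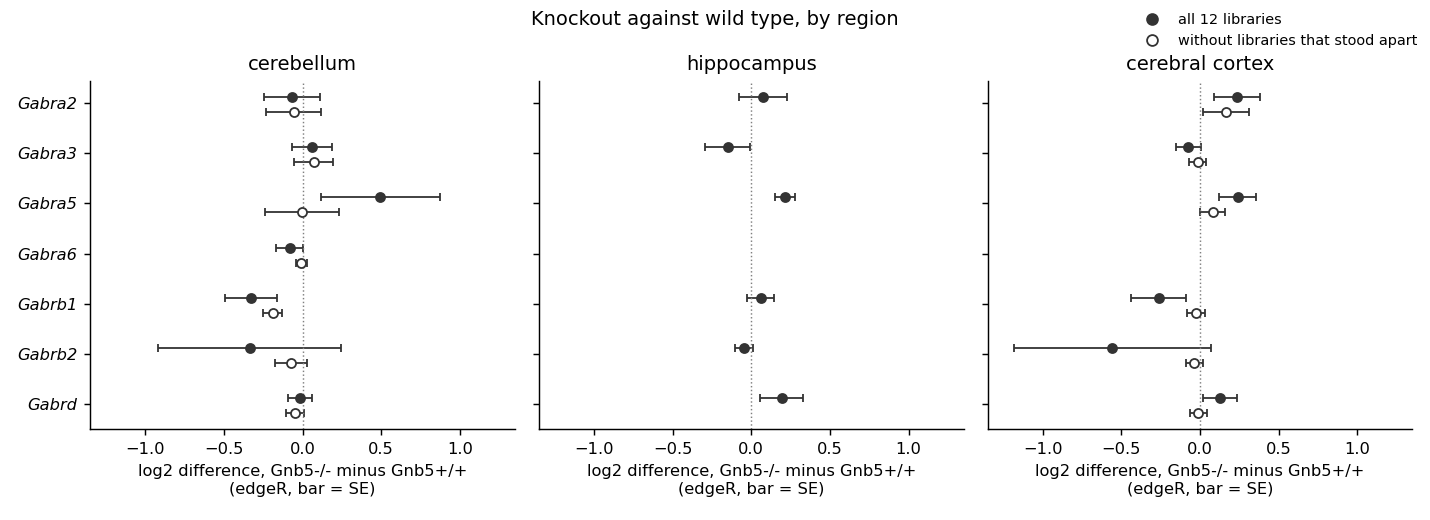
Log2 difference between Gnb5-/- and Gnb5+/+ mice for each member in cerebellum, hippocampus and cerebral cortex from edgeR, with bars for 1 SE; filled points use all 12 libraries and open points leave out the libraries that stood apart. Gabrb2 in cortex moves from -0.56 to -0.04 and Gabra5 in cerebellum from 0.49 to -0.0033 when they are left out; Gabra6 was not tested in hippocampus and cortex.

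The largest deviations of Gabrb2 lay in single Gnb5-/- libraries. In Gnb5-/- cerebellum it was at 3.73, 236 and 268 CPM, and in Gnb5-/- cortex at 2.61, 124 and 143 CPM. The low values were those of the libraries that stood apart: 3.73 CPM in cerebellum replicate 2, 2.61 CPM in cortex replicate 3 and 21.5 CPM in cortex replicate 5, while every other knockout library reached at least 169 CPM in cerebellum and 122 CPM in cortex. Against the median of the ordinary libraries of its region, Gabrb2 was lower by log2 differences of -6.05, -5.69 and -2.67, which ranked it 2nd, 23rd and 23rd from the lowest of 10454 genes with a mean of at least 10 CPM. Gabrb1 was also lower in all 3 libraries, by -1.23, -1.01 and -0.75. The other members moved in both directions in these libraries: Gabra2 differed by -0.04, 0.39 and 0.21, Gabra3 by 0.03, -0.32 and -0.09, Gabrd by 0.19, 0.59 and 0.14, Gabra5 by 1.72, 0.60 and 0.43, and Gabra6 by -0.48, -0.62 and 5.17, where the cortical values of Gabra6 are set against a reference median of only 0.139 CPM. The cerebellar value of Gabra5 is also one of low levels, 1.57 CPM from 62 reads against a reference median of 0.445 CPM. With these libraries the log2 difference of Gabrb2 between genotypes was -0.34 (SE 0.58) in cerebellum and -0.56 (SE 0.62) in cortex (edgeR, adjusted p = 0.777 and 0.605). Without them it was -0.08 (SE 0.10) and -0.04 (SE 0.05). In hippocampus, where no library stood apart, it was -0.05 (SE 0.06), with a 95% interval from -0.16 to 0.07.

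**Figure D4:**
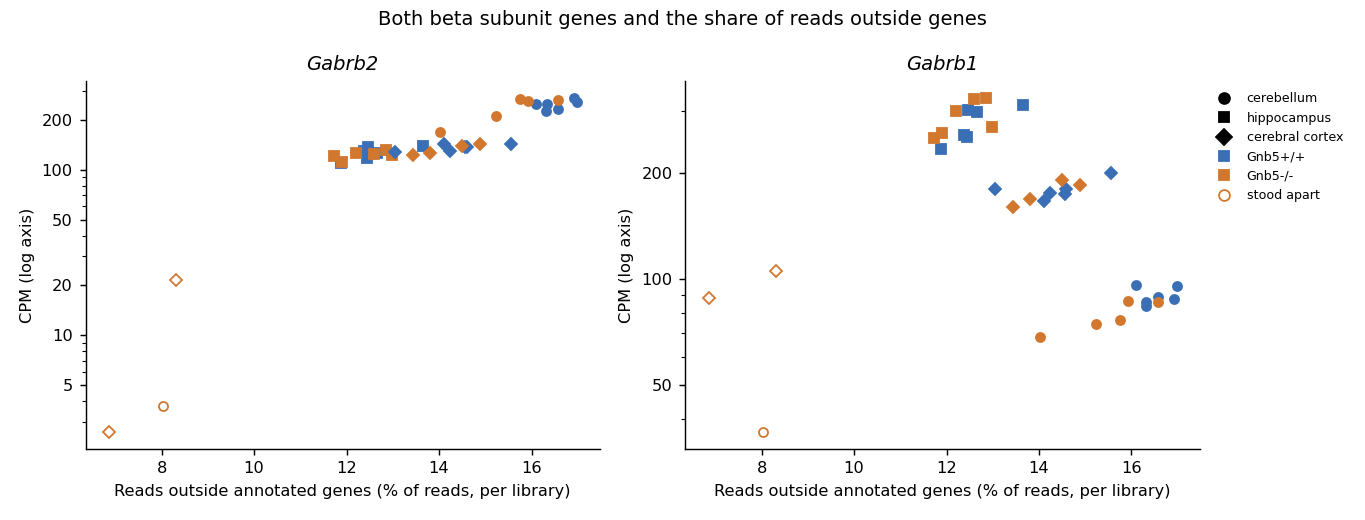
Gabrb2 (left) and Gabrb1 (right) in CPM on a log axis against the share of reads with no gene feature (%) in each of the 36 libraries. The axis label calls them reads outside annotated genes, but they may include reads in introns. Colour gives genotype, shape region, and open symbols the 3 libraries that stood apart. Those 3, at 6.86% to 8.32%, hold 2.61 to 21.5 CPM of Gabrb2, while the other 33 hold 110 CPM or more.

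These libraries differed widely from their neighbours in other genes too. In cerebellum replicate 2 and cortex replicate 3, 13.8% and 18.3% of the 10454 genes were at least 2-fold lower and 13.7% and 17.4% at least 2-fold higher than in the ordinary libraries of the region. In cortex replicate 5 these shares were 4.44% and 0.507%. Of the other GABA-A subunit genes, 6 were high enough to be ranked and 0 of 6 were 2-fold lower in any of the 3 libraries. Of the genes for GABA synthesis and uptake 0, 2 and 0 of 8 were at least 2-fold lower, of those for anchoring and trafficking 6, 7 and 2 of 19, and of those for the chloride gradient 1, 3 and 1 of 10. Interneuron markers summed to 1692 and 1446 CPM in the first pair of libraries, against 349 to 394 CPM in Gnb5+/+ cerebella and 238 to 306 CPM in Gnb5+/+ cortices. In cerebellum replicate 2 choroid plexus markers summed to 890 CPM (13.5 to 21.5 CPM in the other 11 cerebella) and oligodendrocyte markers to 4558 CPM (2098 to 3065 CPM), and astrocyte markers had the lowest sums of their region there (1511 CPM) and in cortex replicate 3 (685 CPM). The choroid plexus sum need not hold for each gene. Between genotypes in cerebellum, the 5 choroid plexus genes tested had a median log2 difference of 0.39 and a largest absolute one of 5.65. The part of these shifts in the beta subunit values was not tested.

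Gabra2, Gabra3, Gabrd and cerebellar Gabra6 did not pass either. Gabra2 was at 101, 117 and 146 CPM in Gnb5-/- cortex against 77.0, 106 and 124 CPM in Gnb5+/+, with overlap and a log2 difference of 0.24 (SE 0.15; edgeR, adjusted p = 0.474; 0.17, SE 0.14, without the 2 libraries that stood apart), and it differed by -0.07 (SE 0.18) in cerebellum and 0.07 (SE 0.15) in hippocampus. Gabra3 differed by 0.06 (SE 0.13) in cerebellum, -0.15 (SE 0.14) in hippocampus and -0.07 (SE 0.08) in cortex. Gabrd differed by -0.02 (SE 0.08), 0.19 (SE 0.13) and 0.13 (SE 0.11) in the same order, and the cortical value turned to -0.0098 (SE 0.05) without the 2 cortices that stood apart, of which replicate 3 held 114.8 CPM. The hippocampal values of both genes leaned on Gnb5-/- replicate 6, which held the lowest Gabra3 (47.2 CPM; the other 5 were at 71.9 to 104) and the highest Gabrd (40.8 CPM; the other 5 were at 22.0 to 27.4). The same library had the highest dentate gyrus sum (409 CPM) and the lowest CA sum (479 CPM) of its group; their part in these values was not tested. In cerebellum Gabra6 differed by -0.08 (SE 0.09; edgeR, adjusted p = 0.669), with 95% limits of -0.26 and 0.09, and by -0.01 (SE 0.04) without replicate 2, which held 604 CPM where the other 5 knockouts held 808 to 856.

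Gabra6 in Gnb5-/- cortex came from 2 libraries. Replicates 4 and 5 held 4.99 and 6.66 CPM, or 195 and 285 reads, and the other 4 knockouts held 0.0735 to 0.278 CPM, inside the range of cortex in Gnb5+/+ mice. A two-sided exact permutation test over all 12 libraries gave p = 0.175. The 7 granule cell markers summed to 140 and 158 CPM in these libraries and to 97.4 to 114 CPM in Gnb5+/+ cortex, but also to 140 CPM in replicate 3, where Gabra6 was at 0.0735 CPM. Of these markers Cbln3, a cerebellin secreted by granule cells, had the largest log2 difference between genotypes in cortex, 2.66 (SE 0.82, edgeR, adjusted p = 0.474). The median over the 7 markers was 0.34. The part of cerebellar tissue in the dissected cortices was not tested.

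The effect of Gnb5 loss was also compared between regions, with each mouse kept as a block. No member passed in any of the 3 comparisons. For cerebellum against cortex 0 of 7 passed, beside 0.0103% of 19388 genes, with unadjusted p below 0.05 for Gabra6 (log2 difference of effects -2.91, SE 1.03; edgeR, adjusted p = 1) and Gabra2 (-0.29, SE 0.12; edgeR, adjusted p = 1). Leaving out all 3 libraries that stood apart gave -3.35 for Gabra6 and -0.13 for Gabra2. For cerebellum against hippocampus 0 of 7 passed, beside 0.0258% of genes. For hippocampus against cortex 0 of 7 and 0 of all genes passed in edgeR, where 857 genes had an unadjusted p below 0.05, and DESeq2 called 0 genes. Gabra6 differed there by -3.57 (SE 1.43; edgeR, adjusted p = 0.641), with Gabra6 highest in the same 2 cortices.

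No gene of the wider GABA pathway passed in these tests. Of 50 genes, 0 rose and 0 fell with Gnb5 loss in any region in edgeR. Among the other 12 subunits, 7 could be tested in cerebellum and 9 in the other regions. An unadjusted edgeR p below 0.05 was found for 0 of 7 in cerebellum, 3 of 9 in hippocampus and 1 of 9 in cortex. Over all genes these shares were 5.85%, 7.70% and 7.39%. The smallest adjusted p of these subunits in hippocampus was 0.575 in edgeR. Genes are named here by the size of the difference, not by p. The largest differences among these subunits were those of the rho subunit Gabrr2 in cerebellum (log2 difference -0.58, SE 0.33) and hippocampus (-0.37, SE 0.24) and of the theta subunit Gabrq in cortex (-0.38, SE 0.22). Both genes were low. Mean levels in Gnb5+/+ and Gnb5-/- mice were 2.85 and 1.91 CPM for Gabrr2 in cerebellum and 0.841 and 0.650 CPM in hippocampus. Those of Gabrq in cortex were 3.06 and 2.35 CPM. All 9 genes for making, packaging, taking up and breaking down GABA were tested in each region. An unadjusted edgeR p below 0.05 was found for 0, 2 and 0 of them in cerebellum, hippocampus and cortex. For the genes of anchoring and trafficking it was 0, 1 and 1 of 19, and for those of the chloride gradient 2, 0 and 0 of 10. The largest differences of the 9 genes were those of the transporters Slc6a11 in cerebellum (-0.15, SE 0.12) and Slc6a12 in hippocampus (0.24, SE 0.56) and cortex (0.32, SE 0.30). Among 19 genes for anchoring and trafficking, the ubiquitin-like proteins Gabarapl2 and Gabarap had the largest values in cerebellum (0.39, SE 0.22, and 0.37, SE 0.22) and cortex (0.52, SE 0.24, and 0.50, SE 0.25), and Mdga1, which restrains neuroligins, in hippocampus (-0.20, SE 0.12), where Gabarapl2 and Gabarap were at 0.06 and 0.02. Without the libraries that stood apart Gabarapl2 was at 0.08 (SE 0.04) in cerebellum and 0.08 (SE 0.04) in cortex and Gabarap at 0.05 (SE 0.05) and 0.0045 (SE 0.04), and 0 of the 50 genes passed in either region in edgeR. Among 10 genes of the chloride gradient, the kinase Stk39 (0.23, SE 0.10) was first in cerebellum, the carbonic anhydrase Car7 (0.12, SE 0.08) in hippocampus and the transporter Slc4a8 (-0.29, SE 0.24) in cortex. Without the libraries that stood apart Stk39 was at 0.13 (SE 0.05) in cerebellum and Slc4a8 at 0.02 (SE 0.04) in cortex.

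Levels of Gabra2 differed between animals, and the order of the animals was most alike between cerebellum and hippocampus. In Gnb5+/+ hippocampus they fell into pairs, at 146 and 147 CPM in mice 18 and 16, at 203 and 210 CPM in mice 7 and 15, and at 260 and 263 CPM in mice 8 and 17. Mice 18 and 16 were also the lowest in cerebellum, at 34.5 and 39.5 CPM, and in cortex, at 80.8 and 77.0 CPM. Among the knockouts mouse 1 was highest in all 3 regions, at 68.3, 282 and 146 CPM in cerebellum, hippocampus and cortex. After centring log2 CPM on each genotype's mean, cerebellum and hippocampus correlated over the 12 mice with Pearson's r of 0.946 (two-sided permutation p = 1e-05, the smallest that 100000 permutations can give) and Spearman's rho of 0.881 (permutation p = 0.00031), and Benjamini-Hochberg adjustment over 21 relations gave 0.00021 and 0.00651. Without the 2 mice farthest from the median in cerebellum r was 0.928. It was 0.951 in Gnb5+/+ and 0.946 in Gnb5-/- mice alone. For hippocampus and cortex r was 0.747 (permutation p = 0.00624, adjusted over the 21 relations 0.0437) and rho 0.678 (permutation p = 0.0187, adjusted 0.131), with r of 0.530 without the 2 farthest mice and 0.9004 over the 9 mice with no library that stood apart. For cerebellum and cortex r was 0.648 (permutation p = 0.0222, adjusted 0.108) and rho 0.601 (permutation p = 0.0431, adjusted 0.226), with 0.557 without the 2 farthest mice and 0.831 over the 9 mice. Within the knockouts alone r was 0.430 for hippocampus and cortex and 0.316 for cerebellum and cortex, against 0.884 and 0.811 in the wild types, a difference that was not tested. As a description, 0.366% of 15016 genes had a correlation between cerebellum and hippocampus as high as that of Gabra2, and the median gene was at 0.166. Gabrb1, the next member on chromosome 5, had r of -0.180 for the same pair of regions.

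**Figure D5:**
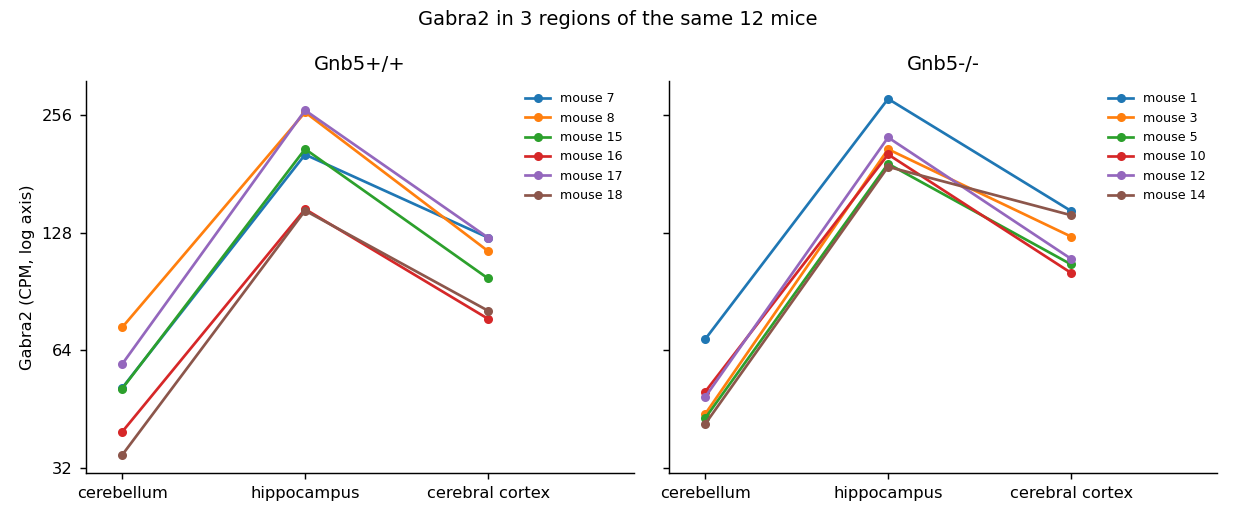
Gabra2 level (CPM, log axis) in cerebellum, hippocampus and cerebral cortex of 6 Gnb5+/+ (left) and 6 Gnb5-/- mice (right), with a line for each mouse. The lines of mice 16 and 18 lie below the other wild types in all 3 regions, and that of mouse 1 lies above the other knockouts.

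The genes whose pattern over the 36 libraries was most like each member were named by Pearson's correlation of log2 CPM among 13668 protein-coding genes; most of this likeness reflects the 3 regions, and it carries no test. Gabra6 was closest to Cbln3 (r = 0.996), Cnpy1 (0.994) and the Purkinje cell gene Ppp1r17 (0.992). For Gabra5 they were Nsmf (0.998), the X-linked Fgf13 (0.997) and Cpne6 (0.995), for Gabra3 the substance P receptor Tacr1 (0.992), the syntaxin Stx1a (0.990) and Bmp3 (0.990), and for Gabra2 Mgat4c (0.950), Serpina3n (0.950) and Ccdc85a (0.949). Those of Gabrb1 were Epha6 (0.988), Ptprg (0.987) and Rfx3 (0.987), and those of Gabrd were Tspan11 (0.979) and Pacsin3 (0.978). For Gabrb2 they were Pdpr (0.996), Dvl3 (0.992) and Slc9a7 (0.991), and over the 33 libraries without those that stood apart these values were 0.971, 0.945 and 0.904.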

How the data were processed

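Gene read counts were taken as deposited. According to the methods and the submitters' processing notes, the authors trimmed reads with Cutadapt 1.8, removed ribosomal and low-complexity reads, aligned to GRCm38 with STAR 2.5.3a and counted reads per gene with htseq-count (HTSeq 0.9.1), 1 file per library. Libraries were stranded total RNA, and the counter's strand setting is not given in the sources used here. Of 53715 gene identifiers, 53620 were matched to GENCODE M21 for symbols, positions and lengths.

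TMM factors scaled the counts, and filterByExpr (minimum 10) removed low genes. In every region the genotypes were tested by the quasi-likelihood test of edgeR 4.0.16 (R 4.3.3), and regions, and effects between regions, with the mouse as a block. P values were adjusted over all genes tested by Benjamini-Hochberg, and SE is the log2 difference over the square root of F, with 95% limits from the normal approximation. Log2 CPM used a prior count of 2. Single members were also compared by exact permutation tests, and correlations over mice by 100000 permutations. The procedure was tested on simulated data. Samples were grouped by their labels, which name the mouse of each library, and the series calls them biological replicates; p values measure the spread between mice, and between libraries made from them. The share of reads with no gene feature is taken over reads on genes, with no feature and ambiguous. The counter's feature setting is not given in the sources used here, so reads with no feature may lie in introns or between genes.

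The members, gene lists and tests were chosen with earlier results of these data known. Named are the members, Gnb5, 1 or 2 genes per pathway list and region with the largest difference where none passed (the rule allowed up to 4), and the 3 genes most like each member (1 gene is not reported here). Marker genes, and Gm9962, which overlaps a member, were named after their values were seen. The heart libraries were not used here. Alternatives were DESeq2 1.42.0, RLE factors, no or a stricter filter, the replicate block, library totals only, coding length, and fits without the libraries that stood apart; leaving out cortex replicates 3 and 5 together, or all 3 libraries, and the pathway fits without them, were chosen after seeing the data.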

Additional observations from a re-analysis of the deposited data

Results flagged for a closer look

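In each of 42 sets of 6 libraries, 7 members in 6 groups, the gap of the highest or lowest library to its neighbour was compared with the range of the set (Dixon's 95% value, which chance passes in about 5% of sets). In 8 sets a library was set apart, and in 4 of them it was 1 of the 3 libraries that stood apart in other genes. Gnb5-/- cerebellum replicate 2 had Gabra5 at 1.57 CPM, above the 0.582 CPM that the wild types reached, Gabra6 at 604 CPM and Gabrb1 at 36.7 CPM. Gnb5-/- cortex replicate 3 had Gabrd at 114.8 CPM. In the remaining sets Gabra2 was at 68.3 CPM in Gnb5-/- cerebellum replicate 4, which is mouse 1, Gabrd at 40.8 CPM in Gnb5-/- hippocampus replicate 6 and at 250.3 CPM in Gnb5+/+ cerebellum replicate 3, and Gabra6 at 0.586 CPM, from 22 reads, in Gnb5+/+ hippocampus replicate 6. No difference of effects between regions passed the threshold for a member.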

How the results depend on the processing

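The number of members past the threshold in each comparison of genotypes (0), regions (7, 7 and 5) and effects (0) was the same under every alternative, except that a minimum of 10 counts in every library removed Gabra6 from the comparisons of cerebellum (6 and 6 members) and library totals only gave 6 for hippocampus against cortex. Counts over all genes moved more. DESeq2 called 49, 104 and 25 genes between genotypes in cerebellum, hippocampus and cortex, against 14, 29 and 10, and the replicate block 5, 19 and 6; leaving out cerebellum replicate 2 gave 62, cortex replicate 3 gave 22, and both cortices 26, and the stricter filter gave 6 in cortex. For effects between cerebellum and cortex DESeq2 called 20 genes against 2, the fit with no replicate block 4, and the fit without all 3 libraries 15; without cortex replicate 3 it was 4 and without both cortices 6. Between cerebellum and hippocampus DESeq2 called 9 against 5. Replicate numbers join different animals across genotypes: deviations of same-numbered libraries correlated at medians of -0.10, -0.04 and -0.11, and 0 of 6 libraries matched their own number best in each region, so the numbers do not pair them. The replicate block changed no call of a member.

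These differences, none past the threshold, changed sign, and the cause was not tested beyond the libraries left out; the largest had been the differences of the genotype effect of Gabrb2 between hippocampus and cortex (0.69) and of Gabra6 between cerebellum and hippocampus (0.66), and the genotype difference of Gabra5 in cerebellum (0.49). Without Gnb5-/- cerebellum replicate 2, Gabra5 in cerebellum was at -0.0033. Without cortex replicates 3 and 5, Gabrd in cortex was at -0.0098. DESeq2 put Gabra6 at -0.11 for hippocampus against cortex in Gnb5+/+. For the effect in cerebellum against cortex, leaving out cerebellum replicate 2 gave -0.23 for Gabra5 and 0.13 for Gabrb1; leaving out cortex replicate 3 gave -0.15 for Gabrb2, leaving out both cortices -0.58 for Gabrb2 and 0.039 for Gabrd, and leaving out all 3 libraries -0.0094 for Gabra5, -0.065 for Gabrb2 and 0.0010 for Gabrd. For cerebellum against hippocampus, DESeq2 gave -0.12 for Gabra6, and the fit without cerebellum replicate 2 gave -0.21 for Gabra5 and 0.024 for Gabrb2. For hippocampus against cortex, Gabra5 was at 0.011 with no filter, 0.11 without cortex replicate 3 and 0.21 without both cortices, which also gave 0.0073 for Gabra2 and -0.094 for Gabrb2. Over the fits that left out single or paired libraries, Gabrd in cortex ran from -0.0098 to 0.017; for cerebellum against cortex Gabra5 ran from -0.23 to 0.45, Gabrb1 from -0.38 to 0.13, Gabrb2 from -0.58 to 0.82 and Gabrd from -0.18 to 0.039, and for hippocampus against cortex Gabra2 from -0.050 to 0.0073 and Gabrb2 from -0.094 to 0.29.

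Coding length in place of exon length changed shares and ratios. In cerebellum Gabra2, Gabra3 and Gabra6 became 5.79%, 1.32% and 92.8% of the alpha members in Gnb5+/+ and 5.92%, 1.47% and 92.5% in Gnb5-/- mice. In hippocampus Gabra2, Gabra3 and Gabra5 became 42.3%, 15.99% and 41.7% in Gnb5+/+, and Gabra2 and Gabra5 41.8% and 44.9% in Gnb5-/-. In cortex Gabra2, Gabra3 and Gabra5 became 34.6%, 49.2% and 16.1%, and 38.1%, 43.6% and 17.7%. These Gnb5-/- shares include the libraries that stood apart. The ratio of Gabrb2 to Gabrb1 became 2.56 and 2.31 in cerebellum, 0.426 and 0.397 in hippocampus, and 0.705 and 0.502 in cortex. Without the libraries that stood apart, the Gnb5-/- ratio was 2.76 ± 0.35 (SD, n = 5) in cerebellum, above that of Gnb5+/+. In cortex it was then 0.699 ± 0.019 (n = 4). Depth limits only Gabra6 outside the cerebellum and Gabra5 within it.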

Other observations

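Relations over the 12 mice were computed for each member and each pair of regions. Besides Gabra2, Gabra5 was related between cerebellum and hippocampus, with Pearson's r of 0.725 (two-sided permutation p = 0.00485, Benjamini-Hochberg adjusted over 21 relations 0.0437) and Spearman's rho of 0.790 (permutation p = 0.00339, adjusted 0.0356), and r was 0.654 without the 2 mice farthest from the median and 0.656 over the 9 mice with no library that stood apart. The cerebellar values behind it come from 13 to 62 reads per library, and 4.41% of all genes had a correlation as high. Gabrd ran the other way between cerebellum and hippocampus, with r of -0.633 (permutation p = 0.0257, adjusted 0.108) and rho of -0.392 (permutation p = 0.208, adjusted 0.623), which did not pass, and with r of -0.739 without the 2 farthest mice. Neither beta member had a relation past the threshold between any pair of regions over the 12 mice. Between cerebellum and cortex, r of Gabrb2 was -0.290 over the 12 mice and 0.784 over the 9 mice with no library that stood apart. For Gabrb1 these values were -0.286 and 0.417, and for Gabra3 0.447 and 0.844. Between cerebellum and hippocampus r of Gabrd was -0.841 over the 9 mice. The relations over the 9 mice were not tested.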
